A study of Mus musculus with 6 samples.

Results

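The Wnt signalling genes of osteogenic MC3T3-E1 cells were examined: the Wnt ligands, their frizzled, LRP and LGR receptors, the R-spondins, the secreted and intracellular inhibitors, and β-catenin with its TCF/LEF partners. They were taken by gene symbol from the protein-coding genes of the deposited table, which gave 61 of its 54532 genes. The selection rule used no measured value, but it was set with earlier results of these data known. MC3T3-E1 cells are mouse pre-osteoblasts, an established line whose cultures mineralize under osteogenic induction. Metformin, a biguanide, is a drug that lowers blood glucose. All 6 cultures were kept for 3 days in osteogenic medium. The 3 control samples received the medium alone, and the 3 metformin samples also received 0.2 mM metformin. Medium, dose and time were taken from the text of the study, as was the statement that the samples are biological replicates. Every sample comes from the same cell line, and no untreated culture without osteogenic medium entered the comparison. The comparison asks which genes of the pathway differed in mRNA level when metformin was added to osteogenic medium.

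Wnt proteins are secreted lipid-modified signals that bind a frizzled receptor together with the co-receptor LRP5 or LRP6. In the absence of a signal, a complex of AXIN, APC and GSK3 marks β-catenin for destruction, and when the receptors are engaged β-catenin accumulates and acts with TCF/LEF proteins at target genes. R-spondins, through LGR receptors, protect frizzled proteins from removal by the ubiquitin ligases ZNRF3 and RNF43. In bone, signalling through LRP5 and β-catenin favours osteoblast formation, and the secreted inhibitors sclerostin and DKK1 oppose it.

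The values were taken as FPKM, the reads of a gene scaled by its length and by a library size for each sample. Levels of different genes can so be set side by side. The reads behind the values could be recovered and totalled 18399861 to 22111790 per sample. The library size in the scaling was not this total: in control replicate 3 it was 19655700, beside 18792236 reads. Control replicate 1 stood apart: across genes its log2 values had Pearson correlations of 0.960 and 0.952 with the other controls, against 0.988 between those and 0.992 between metformin samples. Its deviation from the other controls had a Spearman correlation of -0.668 with GC content across all tested genes and of -0.664 across the 34 tested Wnt signalling genes, given as a description since genes share a library. Calls of the genes named below that changed without it are given beside them. All 9 osteoblast markers were expressed at a tested level. Their summed level was 10510 to 12320 FPKM in control samples and 7422 to 7804 FPKM with metformin, where Col1a1 and Col1a2 rose and Ibsp and Spp1 fell. The other osteoblast markers were not called, and a sum of FPKM follows its most abundant genes. Of the 5 osteocyte markers only Dmp1 was high enough to test, and it was lower. The osteocyte markers summed to 70.6 to 81.6 FPKM in control samples and 35.7 to 39.3 FPKM with metformin. Sost had no more than 1 read in any sample. Of the 5 adipocyte and the 5 chondrocyte markers 2 each were high enough to test. They were not called, but without control replicate 1 Cebpa, Col2a1 and Sox9 were lower. None of the 4 endothelial markers was high enough, and they summed to at most 0.156 FPKM. The muscle factors Myod1 and Myog had no read, and the 4 muscle markers, almost wholly Des, summed to 1.20 to 1.87 FPKM in control and 2.07 to 2.41 FPKM with metformin, where Des was not called (adjusted p = 0.0771). Of 5 leukocyte markers Itgam had no read and Cd14 was lower (adjusted p = 0.0496). The part of these differences in the results on Wnt genes was not tested.

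Metformin samples had less Tcf7, Axin2, Notum, Fzd4 and Ctnnb1 mRNA and more Lgr6, Wnt4, Lrp4, Sfrp2, Fzd1, Wnt5b and Rspo2 mRNA than control samples. The test was limma-trend on log2(FPKM + 1). It covered the 12681 genes whose mean was at least 0.5 FPKM, and a gene was called at a Benjamini-Hochberg adjusted p-value under 0.05 over all of them. Of the 61 Wnt signalling genes, 34 passed this limit and 27 were below it. Of those 34, 7 were higher and 5 lower, where 13.2% of all tested genes were called higher and 9.28% lower, and 22 were not called. The metformin samples lay wholly above the control samples for 8 of the 34 and wholly below them for 10, against 23.6% and 20.5% of all tested genes. The median log2 fold change of the 34 genes was -0.06, beside 0.01 for all tested genes. The limit lies between Rspo3, at a mean of 0.378 FPKM over all samples, and Notum, at 0.759 FPKM. Lgr6 passed it only through the metformin samples and Notum only through the control samples. In bulk RNA, less RNA per cell and fewer cells that express a gene cannot be told apart.

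**Figure D1:**
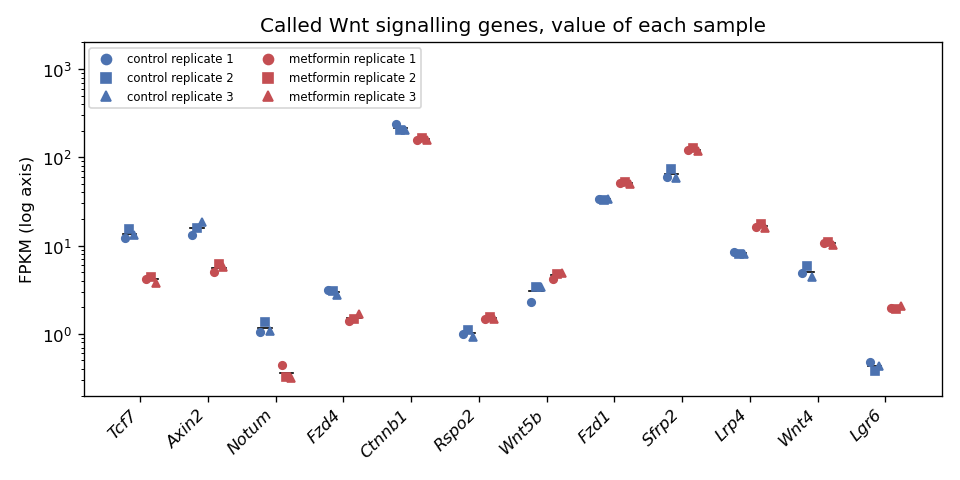
FPKM of the 12 called Wnt signalling genes in each of the 6 samples, on a log axis, with control samples in blue, metformin samples in red, a different marker for each replicate and a short line at each group mean. The groups do not overlap for any of the 12 genes, from Tcf7 (mean 13.6 in control, 4.13 with metformin) to Lgr6 (0.431 and 1.98).

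Among the ligands, Wnt4, a Wnt with roles in kidney, gonad and bone that acts through both β-catenin and other routes, rose. Its level was 4.87, 5.89 and 4.35 FPKM in control samples and 10.8, 11.0 and 10.1 FPKM in metformin samples. Every metformin sample was above every control sample, and the means differed 2.11-fold (log2 fold change 0.95, SE 0.11, adjusted p = 0.0016). Wnt5b, a ligand mostly linked to β-catenin-independent signalling, was 2.27, 3.36 and 3.43 FPKM in control samples and 4.16, 4.79 and 4.87 FPKM with metformin. The groups did not overlap, control replicate 1 was the lowest sample, and the difference was just past the threshold (log2 fold change 0.49, SE 0.14, adjusted p = 0.047). When each sample was left out in turn, Wnt5b was called 1 time in 6, without control replicate 1. The call was also lost with a pseudocount of 0.1 (adjusted p = 0.0511), with scaling by total reads (adjusted p = 0.0669) and without the expression limit (adjusted p = 0.112).

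The other 5 tested ligands were not called. Wnt10b, which favours bone over fat formation, had the highest level of all ligands in both groups, 19.8 ± 1.30 FPKM in control and 15.4 ± 1.56 with metformin (here and below ± is the SD over 3 samples), and its log2 fold change was -0.34 (adjusted p = 0.0555). Wnt10a, a close relative of Wnt10b, was 15.8 ± 2.84 and 11.2 ± 0.701 FPKM (log2 fold change -0.44, adjusted p = 0.0619). For both, all metformin samples lay below all control samples. Without control replicate 1, both passed the threshold, Wnt10a at -0.58 (adjusted p = 0.00174) and Wnt10b at -0.40 (adjusted p = 0.0117). Wnt6, a ligand of epithelia, was 10.4 ± 3.58 and 9.25 ± 0.148 FPKM, with log2 fold change -0.11. Wnt9a, expressed in developing joints, was 7.16 ± 0.285 and 6.80 ± 0.501 FPKM, with -0.07. Wnt5a, the prototype of β-catenin-independent ligands, was 5.61 ± 0.501 and 5.15 ± 0.287 FPKM, with -0.10. The 95% intervals of the log2 fold change were -0.63 to 0.41 for Wnt6, -0.27 to 0.13 for Wnt9a and -0.32 to 0.11 for Wnt5a, and that of Wnt6 was the widest of these. Summed over all Wnt genes, the ligand mRNA was 67.5 ± 8.39 FPKM in control and 63.4 ± 0.913 with metformin. Within that sum Wnt4 made up 7.50% ± 0.985 in control samples and 16.8% ± 0.782 in metformin samples, while Wnt10b went from 29.5% ± 2.03 to 24.3% ± 2.35 and Wnt10a from 23.3% ± 1.43 to 17.7% ± 0.920. These shares are given as values, without a test.

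**Figure D2:**
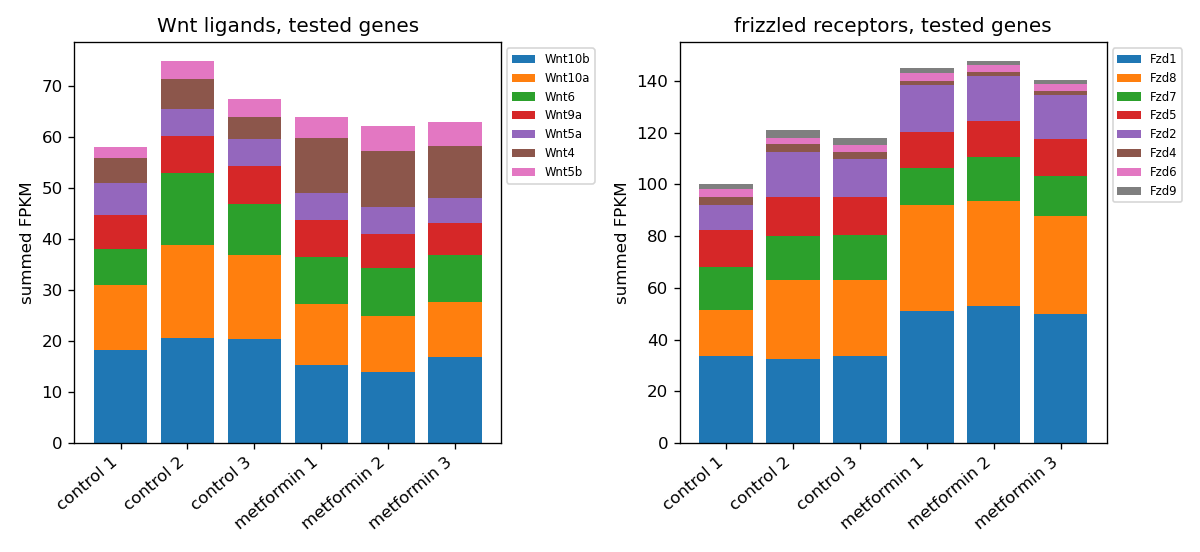
Summed FPKM of the tested Wnt ligands (left) and of the tested frizzled receptors (right) in each of the 6 samples, as stacked bars with a colour for each gene. The Wnt4 segment is larger in the 3 metformin samples (10.6 FPKM on average, against 5.04 in control), and the frizzled bars reach 140.2 to 147.5 FPKM with metformin and 100.1 to 120.9 FPKM in control.

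Among the frizzled receptors, Fzd1, one of the receptors of the β-catenin branch, rose and had the highest frizzled level in both groups. It was 33.6, 32.6 and 33.7 FPKM in control samples and 51.1, 53.0 and 50.1 FPKM with metformin. The spread within a group was small beside the gap between the groups (log2 fold change 0.61, SE 0.08, adjusted p = 0.00216). Fzd4, which also binds the non-Wnt ligand norrin, was 3.12, 3.08 and 2.73 FPKM in control samples and 1.42, 1.49 and 1.68 FPKM with metformin. It fell without overlap of the groups (log2 fold change -0.65, SE 0.09, adjusted p = 0.00338). Fzd8 was 25.8 ± 7.10 FPKM in control and 39.7 ± 1.69 with metformin. All metformin samples were above all controls, control replicate 1 was the lowest at 17.7 FPKM, and the difference was not called (log2 fold change 0.64, adjusted p = 0.0668). Without that replicate the log2 fold change was smaller, 0.40, and was called (adjusted p = 0.00263). Fzd9 was 2.45 ± 0.677 and 1.45 ± 0.247 FPKM (log2 fold change -0.48, adjusted p = 0.0852), and was called without control replicate 1 (-0.64, adjusted p = 0.00564). Fzd2 was 14.0 ± 4.21 and 17.6 ± 0.464 FPKM (log2 fold change 0.36, 95% interval -0.14 to 0.85). Fzd7 was 17.1 ± 0.232 and 15.7 ± 1.47 FPKM (-0.13, interval -0.34 to 0.09). Fzd5 was 14.5 ± 0.324 and 13.9 ± 0.280 FPKM (-0.06, interval -0.23 to 0.12). Fzd6 was 2.75 ± 0.615 and 2.94 ± 0.413 FPKM (0.08, interval -0.26 to 0.43). These 4 receptors were not called. Summed frizzled mRNA was 113 ± 11.2 FPKM in control samples and 144 ± 3.71 FPKM with metformin.

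Of the co-receptors, Lrp4 rose. LRP4 is a receptor for agrin at the neuromuscular junction and, in bone, binds sclerostin. Its level was 8.52, 7.94 and 8.08 FPKM in control samples and 16.3, 17.8 and 15.9 FPKM with metformin. The lowest metformin sample was far above the highest control sample, a 2.04-fold difference of the means (log2 fold change 0.94, SE 0.08, adjusted p = 0.000461). The Wnt co-receptors themselves were not called. Lrp5 was 60.5 ± 10.8 FPKM in control and 57.4 ± 2.76 with metformin (log2 fold change -0.06, 95% interval -0.40 to 0.28), and Lrp6 was 16.8 ± 2.13 and 16.8 ± 0.438 FPKM (0.01, interval -0.24 to 0.26). The sign for Lrp6 changed with scaling by total reads and with a correction for GC content.

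In the R-spondin and LGR branch, Lgr6, a receptor for R-spondins, rose from a low level. It was 0.480, 0.376 and 0.438 FPKM in control samples, from 54 to 60 reads, and 1.96, 1.94 and 2.05 FPKM with metformin, from 266 to 289 reads. The groups were far apart, and the means differed 4.59-fold, while the log2 fold change of FPKM + 1 was 1.06 (SE 0.09, adjusted p = 0.000415), since the added 1 understates the change of a low gene. Lgr4, its relative with the higher level here, was 10.6 ± 1.86 and 12.0 ± 0.573 FPKM (log2 fold change 0.17, adjusted p = 0.38) and was called without control replicate 1 (0.29, adjusted p = 0.0211). Lgr5 had 1 read over all samples. Rspo2, an R-spondin with roles in limb and bone, was 1.01, 1.11 and 0.926 FPKM in control samples and 1.49, 1.56 and 1.48 FPKM with metformin. It was just past the threshold (log2 fold change 0.32, SE 0.09, adjusted p = 0.0452) and was called 1 time in 6 when each sample was left out in turn, again without control replicate 1. The Rspo2 call was also lost with the correction for GC content (log2 fold change 0.24, adjusted p = 0.0694), without the expression limit (adjusted p = 0.105) and when replicate number entered as a block (adjusted p = 0.137). Rspo3, below the expression limit, had 11, 10 and 10 reads in control samples and 32, 35 and 43 with metformin. In a test of the recovered reads with limma-voom over the 14811 genes with at least 30 reads in all samples together, added after the values were seen, Rspo3 was higher (log2 fold change 1.71, SE 0.34, adjusted p = 0.00813). In that test 9 of the 37 Wnt signalling genes that entered were higher and 7 lower, where 12.5% and 9.02% of all genes were. Among the lower was Wnt7b, which entered only through the control samples.

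The ubiquitin ligases that the R-spondins hold back were not called. Znrf3 was 3.55 ± 0.375 FPKM in control and 3.64 ± 0.274 with metformin (log2 fold change 0.03, 95% interval -0.20 to 0.26), and Rnf43 was 3.12 ± 0.473 and 2.84 ± 0.114 FPKM (-0.10, interval -0.35 to 0.16). The sign for Znrf3 changed with the GC correction.

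**Figure D3:**
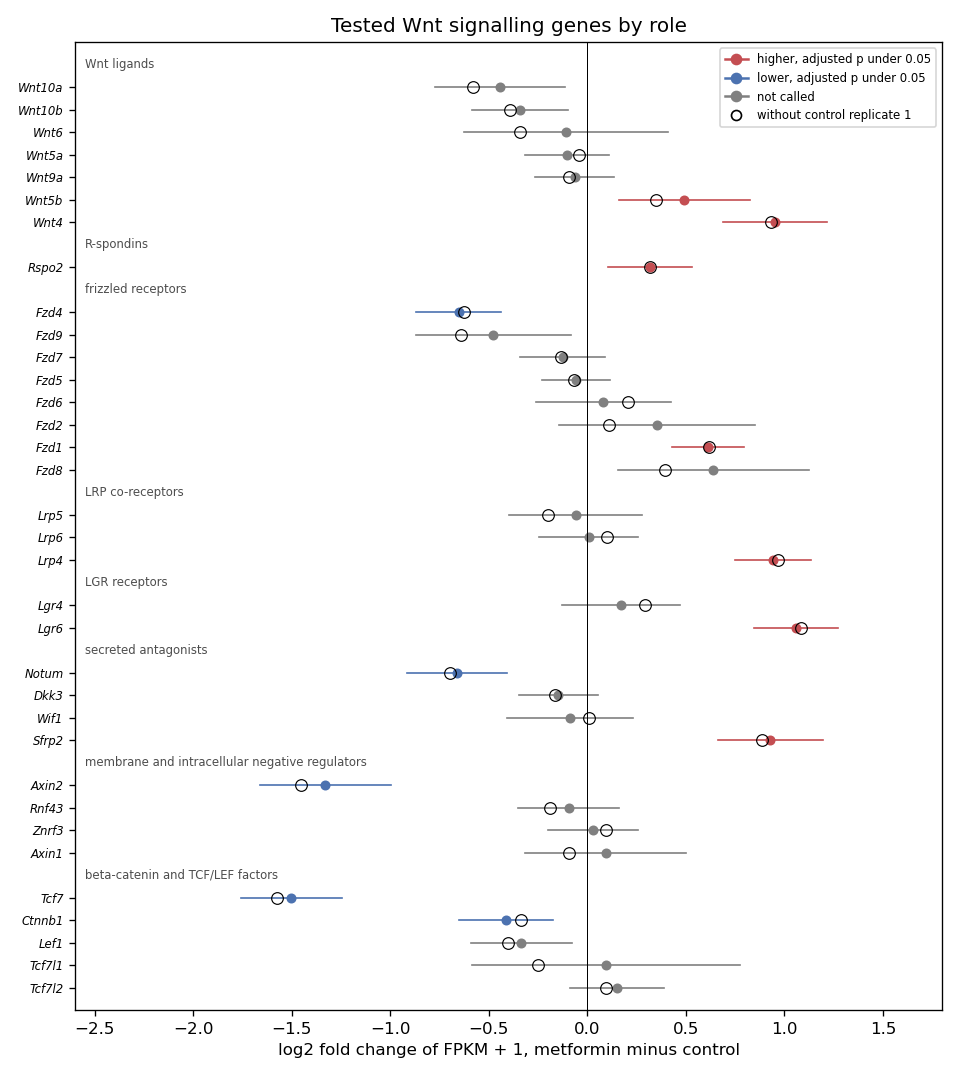
Log2 fold change of FPKM + 1, metformin minus control, with its 95% interval, for the 34 tested Wnt signalling genes in order of role. Filled points are coloured by call and open points give the value without control replicate 1. Tcf7 at -1.50 and Axin2 at -1.33 lie farthest to the left and Lgr6 at 1.06 farthest to the right.

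Among the secreted antagonists, Sfrp2, a frizzled-related protein that binds Wnts outside the cell, rose. Its level was 60.3, 73.3 and 58.3 FPKM in control samples and 121, 127 and 118 FPKM with metformin. The groups did not overlap (log2 fold change 0.93, SE 0.11, adjusted p = 0.00185). The antisense gene Gm26771 shares 16.1% of the exon bases of Sfrp2. It had 13 to 39 reads per sample and was not called (log2 fold change 0.19, adjusted p = 0.515). Notum, the enzyme that removes the lipid from Wnt proteins and is itself a β-catenin target, fell. It was 1.05, 1.35 and 1.08 FPKM in control samples and 0.440, 0.324 and 0.320 FPKM with metformin, from 46 to 68 and from 15 to 21 reads. The control mean was 3.20 times the metformin mean (log2 fold change -0.66, SE 0.11, adjusted p = 0.00616). Its antisense gene Notumos shares 29.4% of its exon bases and had at most 1 read in any sample. Whether the counting used strand is not stated in the sources used here. Dkk3, placed with the antagonists here as a Dickkopf-family gene, had the highest level of them in control and metformin samples. It was 154 ± 4.57 and 139 ± 5.92 FPKM (log2 fold change -0.15, adjusted p = 0.262). Wif1, which binds Wnts directly, was 79.8 ± 13.3 and 74.3 ± 1.21 FPKM (-0.09, adjusted p = 0.689). The mRNA summed over the genes of this role was 299 ± 20.5 FPKM in control samples and 336 ± 9.49 FPKM with metformin. The share of Sfrp2 in it was 21.4% ± 1.56 and 36.3% ± 0.373, and that of Dkk3, whose action on Wnt was not measured, 51.6% ± 3.10 and 41.4% ± 0.595.

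Inside the cell, Axin2, the AXIN gene that β-catenin induces as a feedback inhibitor, fell. It was 13.1, 15.8 and 18.6 FPKM in control samples and 5.05, 6.21 and 5.68 FPKM with metformin. The lowest control sample was more than the highest metformin sample by a wide margin, and the control mean was 2.80 times the metformin mean (log2 fold change -1.33, SE 0.14, adjusted p = 0.001). Axin1, the constitutive AXIN gene, was 27.9 ± 6.69 and 29.3 ± 0.911 FPKM (log2 fold change 0.09, 95% interval -0.32 to 0.50) and was not called. Axin2 made up 31.5% ± 0.693 of the summed mRNA of Axin1, Axin2, Znrf3, Rnf43, Nkd1 and Nkd2 in control samples and 13.7% ± 1.57 with metformin.

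Of the nuclear factors, Tcf7, which encodes TCF1 and is a known β-catenin target, fell by more on the log2 scale than any other of the 34 tested genes. It was 12.2, 15.3 and 13.3 FPKM in control samples and 4.20, 4.44 and 3.75 FPKM with metformin. The control mean was 3.28 times the metformin mean, without overlap (log2 fold change -1.50, SE 0.11, adjusted p = 0.00024). Ctnnb1, which encodes β-catenin, was 238, 203 and 204 FPKM in control samples and 157, 166 and 159 FPKM with metformin. It fell without overlap (log2 fold change -0.41, SE 0.10, adjusted p = 0.0275), and its call was lost when any 1 metformin sample was left out. It held when any 1 control sample was left out, and was lost without the expression limit (adjusted p = 0.0569) and when replicate number entered as a block (adjusted p = 0.0952). Ulk4 on the other strand shares 14.6% of its exon bases and had 49 to 87 reads per sample. Lef1, a further TCF/LEF factor and β-catenin target, was 1.11 ± 0.191 and 0.670 ± 0.0514 FPKM. All metformin samples lay below all controls, and the difference missed the threshold (log2 fold change -0.34, SE 0.11, adjusted p = 0.0669). It passed in the voom test (log2 fold change -0.73, adjusted p = 0.0223) and without control replicate 1 (-0.40, adjusted p = 0.0183). Tcf7l1 was 39.9 ± 15.4 and 40.3 ± 1.51 FPKM (log2 fold change 0.10, 95% interval -0.59 to 0.78), and its control samples ran from 22.8 FPKM in replicate 1 to 52.8 FPKM. Tcf7l2 was 3.27 ± 0.434 and 3.73 ± 0.187 FPKM (0.15, interval -0.09 to 0.39). Neither was called.

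Of the 12 calls, 9 held whichever of the 6 samples was left out, and the exceptions were Ctnnb1, Wnt5b and Rspo2. Without control replicate 1, 9 of the Wnt signalling genes were higher and 9 lower, where 23.4% and 20.4% of all tested genes were. The 6 genes gained were Fzd8, Fzd9, Lef1, Lgr4, Wnt10a and Wnt10b. With all 6 samples kept, limma-trend after the GC correction also called Fzd8 (adjusted p = 0.0359), Fzd9 (0.0119), Wnt10a (0.0181) and Wnt10b (0.0139). It did not call Lef1 (0.0515) or Lgr4 (0.419). Voom on the recovered reads of the 12681 tested genes called Fzd8 (adjusted p = 0.0463) and Lef1 (0.0212) and none of the others gained.

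The called genes lie on different chromosomes apart from 3 on chromosome 11. In the coordinates of the table, which are those of GRCm38, Axin2 spans chr11:108920349-108950783, Tcf7 chr11:52252371-52283014 and Notum chr11:120653788-120661175. Fzd4 spans chr7:89404355-89413134 and Ctnnb1 chr9:120929216-120960507. Of the genes that rose, Lgr6 spans chr1:134983301-135105276, Lrp4 chr2:91457511-91513779, Sfrp2 chr3:83766321-83774316, Wnt4 chr4:137277489-137299726, Fzd1 chr5:4753839-4758035, Wnt5b chr6:119432531-119544347 and Rspo2 chr15:43020794-43170826. The 3 genes on chromosome 11 all fell, and they lie apart from each other, with no other called Wnt signalling gene on that chromosome.

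The promoters of Axin2, Sfrp2 and Lgr6 are shown because these genes fell or rose without overlap and the RefSeq start coincides with the gene start in the table. Tcf7 and Wnt5b meet this too but have more than 1 RefSeq start, and are not shown. The choice was made after the values were seen. Each is the 250 bases before the start on the strand of the gene, from RefSeq on GRCm38.p6, and capitals mark the GC box GGGCGG or its reverse complement CCGCCC. Axin2 lies on the plus strand at chr11:108920099-108920348, Sfrp2 on the plus strand at chr3:83766071-83766320 and Lgr6 on the minus strand at chr1:135105277-135105526.
Axin2: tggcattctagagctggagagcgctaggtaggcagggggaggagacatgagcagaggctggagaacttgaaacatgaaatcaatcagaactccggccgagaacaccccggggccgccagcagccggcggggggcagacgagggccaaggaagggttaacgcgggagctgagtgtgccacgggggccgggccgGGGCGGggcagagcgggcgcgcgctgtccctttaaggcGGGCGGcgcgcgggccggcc
Sfrp2: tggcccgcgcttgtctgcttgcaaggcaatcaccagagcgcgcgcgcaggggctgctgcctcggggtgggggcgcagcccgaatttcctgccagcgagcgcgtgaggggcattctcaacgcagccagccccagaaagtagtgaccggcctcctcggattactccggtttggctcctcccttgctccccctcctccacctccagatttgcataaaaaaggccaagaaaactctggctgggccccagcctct
Lgr6: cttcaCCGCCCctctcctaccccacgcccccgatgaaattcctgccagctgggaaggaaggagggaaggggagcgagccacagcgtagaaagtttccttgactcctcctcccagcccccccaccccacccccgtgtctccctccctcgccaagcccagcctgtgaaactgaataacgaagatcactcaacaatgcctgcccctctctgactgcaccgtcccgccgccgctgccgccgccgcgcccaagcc
A window of 300 bases, 250 before and 50 after the start, was available for 40 of the 61 genes, which have 50 such windows. The TCF/LEF letters CTTTGAT or CTTTGAA, on either strand, were in 3 of the 50 windows (6%), those of Dkk1, Wnt11 and an alternative start of Wnt5b, and in 8.65% of the 32851 windows of all genes. The GC box was in 34 of the 50 windows (68%), against 35.7% of all windows. Of the 12 called genes, 9 had a window, and of their 13 windows 1 held the TCF/LEF letters and 10 the GC box. Both motifs were chosen after the values were seen. A match is a description and not a binding site, and its absence concerns only these letters in this window.

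The 27 genes below the expression limit had means of at most 0.378 FPKM over the 6 samples. No read was found in any sample for 11 of them: the ligands Wnt2, Wnt3, Wnt3a, Wnt7a, Wnt8a and Wnt9b, the receptors Fzd3 and Fzd10, the R-spondin gene Rspo1 and the antagonists Dkk1 and Dkk4. A count of 0 in a sample allows up to 3 reads, and that limit covers counting error only. Sost, which encodes sclerostin, Wnt1 and Nkd1 had 2 reads each over all samples, and Sfrp1 and Lgr5 had 1. Wnt7b, a ligand with a role in osteoblast formation, had 26, 34 and 40 reads in control samples and 2, 3 and 8 with metformin. It reached the 30 reads of the voom test only through the control samples. In that test it was lower (log2 fold change -3.06, SE 0.51, adjusted p = 0.00398), without overlap of the groups, at a level of 0.346 ± 0.0637 FPKM in control and 0.0442 ± 0.0346 with metformin. Wnt2b had 19, 24 and 13 reads in control samples and 12, 10 and 4 with metformin, and was not called (log2 fold change -1.20, adjusted p = 0.113). Of the genes with fewer than 30 reads in all, which were not tested, Sfrp5 had 8, 12 and 6 reads in control samples and 0, 1 and 0 with metformin. Dkk2 had 6, 2 and 2 reads in control samples and none with metformin, and Rspo4 had 4, 1 and 1 and none. Wnt11 had 0 to 9 reads per sample, Nkd2 0 to 9, Wnt8b 0 to 8, Sfrp4 0 to 4 and Wnt16 0 to 1.

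**Figure D4:**
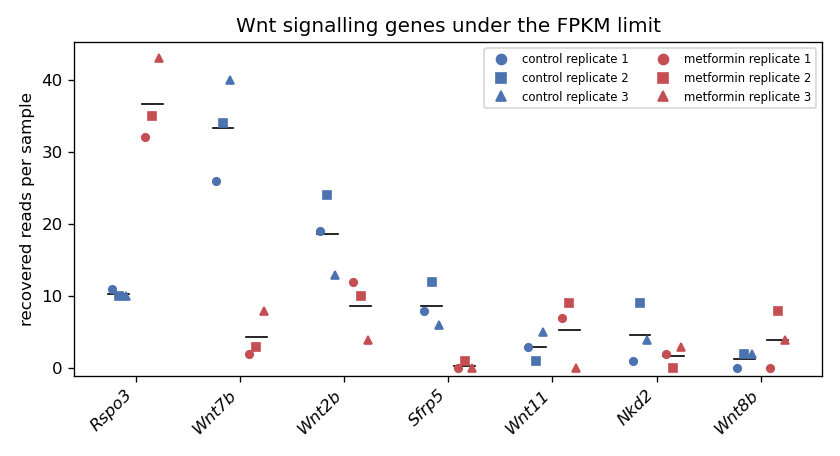
Recovered reads in each sample of the 7 Wnt signalling genes with the most reads among those below the expression limit, with control samples in blue, metformin samples in red, a marker for each replicate and a short line at each group mean. Wnt7b has 26 to 40 reads in control samples and 2 to 8 with metformin, and Rspo3 has 10 to 11 and 32 to 43.

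Some of the genes are neighbours in the genome. Wnt6 and Wnt10a lie 6.19 kb apart on the same strand of chromosome 1 and had log2 fold changes of -0.11 and -0.44. Wnt10b and Wnt1 lie 11.7 kb apart on opposite strands of chromosome 15, and Wnt1 had 2 reads. Wnt9a, at 7.16 ± 0.285 FPKM in control, lies 16.2 kb from Wnt3a on chromosome 11, which had no read. Wnt9b and Wnt3, also on chromosome 11 and 24.3 kb apart, both had none.

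Other genes of the pathway were taken from a list of 64 that the symbol rule did not include, of which 54 were tested. Of these, 2 were higher and 4 lower, against 13.2% and 9.28% of all tested genes, and their median log2 fold change was 0.004. Ctnnbip1, an inhibitor that binds β-catenin, rose (6.26 ± 0.970 FPKM in control, 10.6 ± 0.866 with metformin, log2 fold change 0.69, adjusted p = 0.00822), as did Daam2, a formin of the Wnt branch to the cytoskeleton (0.44, adjusted p = 0.0231). Igfbp4, an IGF-binding protein that can also inhibit Wnt signalling, fell (66.5 ± 19.8 and 27.3 ± 1.01 FPKM, log2 fold change -1.21, adjusted p = 0.0107). Dact1, a Dishevelled-binding regulator, fell by 0.49 on the log2 scale (adjusted p = 0.00787), Tpbg, a Wnt inhibitor of the cell surface, by 0.39 (adjusted p = 0.0466), and Tle1, a co-repressor of TCF proteins, by 0.34 (adjusted p = 0.0319). When each of the 6 samples was left out in turn, Ctnnbip1 and Igfbp4 were called 6 times, Dact1 5 times, Daam2 and Tpbg 2 times and Tle1 1 time. Of the 15 tested genes of β-catenin destruction and turnover 0 were called by limma-trend. At an unadjusted p under 0.05 there were 2, and voom on the recovered reads called 1. How many of all tested genes had such an unadjusted p was not counted, so the counts at that limit have no share beside them. The kinase gene Gsk3b was 13.9 ± 1.79 and 13.9 ± 0.648 FPKM (log2 fold change 0.01, 95% interval -0.25 to 0.26) and the scaffold gene Apc 5.04 ± 1.07 and 5.63 ± 0.384 FPKM (0.15, interval -0.18 to 0.48). Without control replicate 1, Apc was called higher (0.28, adjusted p = 0.0454). Of the 3 Dishevelled genes 0 were called by limma-trend and 0 by voom, with 1 at an unadjusted p under 0.05. Without control replicate 1, Dvl1 and Dvl2 were called lower, at -0.37 (adjusted p = 0.00819) and -0.33 (adjusted p = 0.0277). Of the genes for Wnt acylation and secretion, Porcn was 39.2 ± 12.0 and 35.1 ± 1.20 FPKM (-0.11) and Wls 28.5 ± 5.69 and 22.5 ± 0.0988 FPKM (-0.31, adjusted p = 0.169). Neither was called by limma-trend or voom, and 0 of the 2 had an unadjusted p under 0.05. Porcn was called lower without control replicate 1 (-0.38, adjusted p = 0.00262), and Wls with the GC correction (-0.33, adjusted p = 0.0122). Over all 54 genes, 7 were higher and 10 lower without control replicate 1, beside 23.4% and 20.4% of all tested genes.

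Genes known elsewhere as β-catenin targets, besides those above, formed a list of 27, of which 22 were tested. Of these, 11 were higher and 1 was lower, beside the same 13.2% and 9.28% of all tested genes, and the median log2 fold change was 0.58. This list was chosen with earlier results of these data known, so the counts describe the listed genes and not β-catenin targets in general. The targets Axin2, Tcf7 and Notum, which fell, and Lef1, which was not called, are described above and did not enter these counts. The other Wnt signalling genes, among them Rnf43 and Znrf3, which were not called, were not sorted by whether they are targets. The targets named above therefore do not stand for all targets among the Wnt signalling genes. Cyr61, which encodes a matricellular protein, was 152 ± 27.1 FPKM in control and 685 ± 29.1 with metformin (log2 fold change 2.18, adjusted p = 0.000206). Birc5, which encodes the cell division protein survivin, was 2.74 ± 1.28 and 15.3 ± 0.204 FPKM (2.17, adjusted p = 0.00102), and Bmp4, an osteogenic growth factor, 15.6 ± 1.48 and 58.9 ± 0.295 FPKM (1.85, adjusted p = 8.13e-05). Jun, a subunit of AP-1, was 30.4 ± 7.79 and 68.6 ± 7.60 FPKM (1.17, adjusted p = 0.00645), and Plaur, the urokinase receptor gene, 7.87 ± 2.09 and 17.7 ± 1.00 FPKM (1.10, adjusted p = 0.00656). All of these rose, as did the cell growth genes that follow. Ccnd1, the cyclin D1 gene, was 61.7 ± 5.07 and 130 ± 2.85 FPKM (1.06, adjusted p = 0.000503), and Myc 37.8 ± 8.66 and 69.3 ± 5.26 FPKM (0.88, adjusted p = 0.0144). Fgf18, the growth factor gene that was lower, was 0.929 ± 0.337 and 0.124 ± 0.0423 FPKM (-0.76, adjusted p = 0.0138). It passed the expression limit only through the control samples and did not enter with at least 10 reads in every sample. The calls of Myc and Fgf18 held 4 times when each of the 6 samples was left out in turn, and those of the other 6 genes named here held each time. The remaining 10 tested genes of the list were not called. Without control replicate 1, 12 were higher and 4 lower, beside 23.4% and 20.4% of all tested genes. Each of the genes in this list also has regulators outside the pathway, and the part of β-catenin in their levels was not measured.

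**Figure D5:**
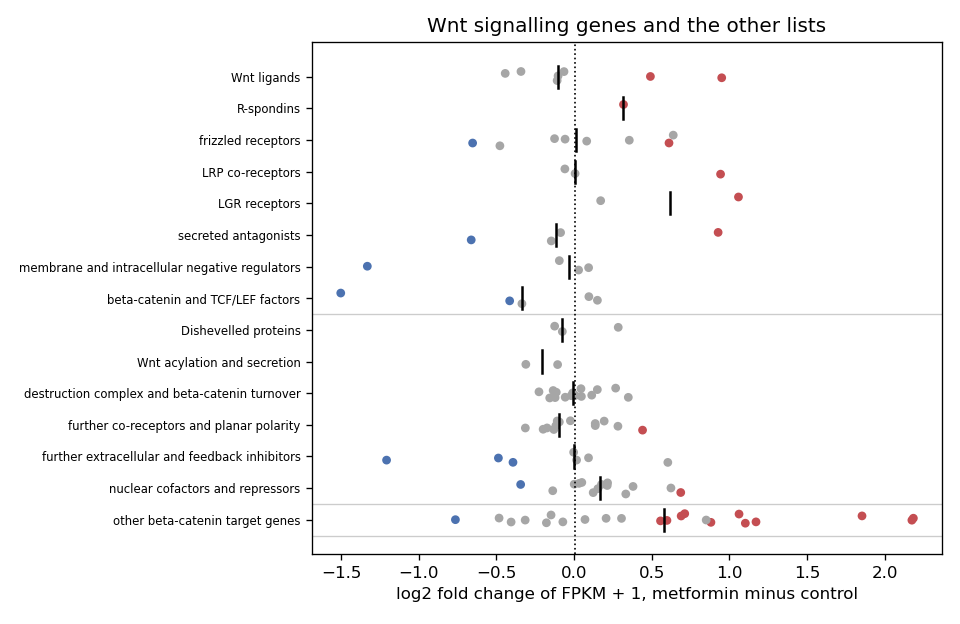
Log2 fold change of FPKM + 1, metformin minus control, of each tested gene, with the Wnt signalling genes by role at the top, the other pathway genes in the middle and the other β-catenin targets at the bottom. Red points were called higher, blue points lower and grey points were not called, short black lines are medians, and the median is 0.58 for the 22 other targets and -0.01 for the 15 genes of β-catenin destruction and turnover.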

How the data were processed

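RNA was sequenced from MC3T3-E1 cells in osteogenic medium with or without metformin (3 samples each). Samples were grouped by their labels, nc or met, which do not name the medium. The authors deposited 1 table without a named unit. Its values were taken as FPKM, because, after multiplication by the deposited gene length and division by a constant for each sample, every value above 0 was whole (100% of values, tolerance 0.001). The authors used DESeq2 on counts. Here the FPKM were tested on the log scale, and the recovered reads entered alternatives only. The submitters' processing notes name Bowtie 0.12.2, mm8 and mm9 without a role, and how they apply to this table is not given in the sources used here. Of the 54532 gene identifiers, 53499 have the coordinates of GENCODE M21 (GRCm38), as do 59 of the 61 Wnt signalling genes.

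Groups were compared with limma 3.58.1 (R 4.3.3), using its intensity trend, on log2(FPKM + 1). The 12681 genes whose mean was at least 0.5 FPKM entered, with Benjamini-Hochberg adjustment at 0.05. The fit was tested on simulated data. P-values measure the spread between 3 samples per group. Depths were 18399861 to 22111790 reads per sample, and no 2 samples differed by as little as sampling noise. The alternatives comprised total-read scaling, a pseudocount of 0.1, an absolute log2 fold change of at least 1, no expression limit, at least 10 reads in every sample, voom on the recovered reads, a GC correction, the replicate block and leaving out each sample. The voom fit over genes with at least 30 reads was chosen after the values were seen.

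The Wnt signalling genes and the other lists were chosen with earlier results of these data known. Every Wnt signalling gene is accounted for, called genes with every sample and the others by group. From each other list at most 6 called genes were named, those with the largest change, beside the set central genes Porcn, Wls, Dvl2, Gsk3b, Apc and Myc. Ccnd1 and Ror2 were also set. Ccnd1 was among the called genes with the largest change, and no value is given for Ror2. Dvl1 and Fgf18 were named after their values were seen. Promoter windows came from RefSeq (GRCm38.p6). Exon overlaps came from GENCODE M21. Figures were drawn with matplotlib 3.10.9.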

Additional observations from a re-analysis of the deposited data

How the results depend on the processing

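Of the 12 called Wnt signalling genes 0 changed sign in any of the 15 alternative fits, and 3 lost the call in some: Ctnnb1, Wnt5b and Rspo2. Among the others, 8 of the 34 tested genes changed sign somewhere, none of them called. The log2 fold change of Lrp6 was -0.0202 with scaling by total reads and -0.0657 with the GC correction, alone or with the replicate block, and that of Znrf3 was -0.0177 with either. Over the fits that each left out a sample, it ran from -0.0911 to 0.252 for Axin1, -0.0312 to 0.204 for Fzd6, -0.199 to 0.0591 for Lrp5, -0.0705 to 0.0979 for Lrp6, -0.253 to 0.334 for Tcf7l1, -0.228 to 0.00654 for Wif1, -0.341 to 0.118 for Wnt6 and -0.0200 to 0.0938 for Znrf3.

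Leaving out a sample in turn gave 5 to 9 higher and 4 to 9 lower Wnt signalling genes, 938 to 2969 higher and 495 to 2590 lower among all genes, 1 to 7 and 1 to 10 among the other pathway genes, and 8 to 12 and 0 to 4 among the other targets. The upper ends came without control replicate 1, and for the higher targets also without control replicate 3. With an absolute log2 fold change of at least 1, 468 and 168 of all genes, 1 and 2 Wnt signalling genes, 0 and 1 other pathway genes and 6 and 0 other targets remained past both limits. With the GC correction, 2433 of all genes were lower and 2062 higher, with 8 Wnt signalling genes, 8 other pathway genes and 5 other targets lower and 4 other pathway genes higher. With at least 10 reads in every sample 0 other targets were lower. The cause of these shifts was not tested.

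Deviations from the group mean had correlations of -0.0533, 0.000265 and -0.0549 between same-numbered samples across genes. The labels do not say whether same-numbered samples belong together. These correlations cannot decide it, since control replicate 1 stood apart and shifts the mean from which every control deviates. With the replicate block 6 Wnt signalling genes were higher and 4 lower, and 1 other pathway gene was higher and 2 lower. Of all genes, 1161 were higher and 698 lower with that block. With the block and the GC correction together, 1888 of all genes, 8 Wnt signalling genes and 4 other targets were lower.

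Depth limits the 27 genes below the expression limit, of which 3 had enough reads for a test.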
